A study of Mus musculus with 10 samples.

Results

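The genes described here encode proteins of the mitochondrial ribosome, and their transcripts were measured in whole liver of mice that lack the nuclear receptor Rev-erb alpha. They were chosen by name alone, as genes whose symbol begins with Mrpl or Mrps followed by a digit and whose array probe set carried only that symbol. This gave 77 genes, on 85 probe sets, of 19933 genes tested. Where a gene had more than 1 probe set, the one of highest mean stood for it. Arrays came from 5 knockout (KO) and 5 wild-type (WT) male mice, 1 mouse per array. KO mice carried the Nr1d1-/- genotype and came from a line crossed back to C57Bl/6 for at least 7 generations, whereas WT mice were purchased C57Bl/6 animals, so genotype and origin cannot be told apart. All mice were 10 to 12 weeks old, ate normal chow, were kept under 12 h light and 12 h dark, and had their livers taken at ZT10, 10 h into the light phase.

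The mitochondrial ribosome translates the few messages encoded by mitochondrial DNA, all of them for subunits of the respiratory chain and the ATP synthase. Its RNAs come from the mitochondrial genome, but all of its proteins are encoded in the nucleus, made in the cytosol and imported. Part of them descend from bacterial ribosomal proteins and part were added during the evolution of mitochondria. Hepatocytes are rich in mitochondria, and Rev-erb alpha is a transcriptional repressor whose known targets in liver include clock and lipid genes.

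All values are log2 of the deposited normalized intensity, and a difference is KO minus WT on that scale. KO was compared with WT by limma over all 19933 genes, and a gene was called when its Benjamini-Hochberg adjusted p was under 0.05. Array medians lay between 7.48 and 7.55 and interquartile ranges between 2.71 and 2.94 on the log2 scale over the genes tested. The only Nr1d1 probe set read 9.92 ± 0.45 in KO and 9.78 ± 0.16 in WT (SD, n = 5 each, limma adjusted p = 0.803). The sources used here do not say whether it covers the deleted part, so it checks nothing about the genotype. The summed linear intensity of 8 hepatocyte markers was 101100 to 104100 in KO livers and 101300 to 103200 in WT livers, and 0 of the 8 lay below the median of all genes. All 7 lymphocyte (summed 638.0 to 768.7 in KO, 654.6 to 731.6 in WT) and all 6 neutrophil markers (474.1 to 588.9 in KO, 482.7 to 580.6 in WT) lay below that median. Summed cholangiocyte markers, 4 of 5 below the median, ran from 741.5 to 944.9 in KO livers and from 623.8 to 719.6 in WT livers. Of the 5, 2 stood above 0 and 3 below, with a median of -0.007, and 1 was called, the transcription factor gene Sox9 at 0.62 (limma adjusted p = 0.0129, and 0.0666 without the 3 arrays of widest interquartile range). The part of such cells in the results below was not tested. Summed ranges of macrophage (4160 to 5629 in KO, 4511 to 6619 in WT), stellate (6984 to 7933 in KO, 7021 to 8035 in WT), endothelial (6230 to 7835 in KO, 5684 to 7307 in WT) and erythroid (1530 to 1951 in KO, 1797 to 2172 in WT) markers overlapped. Of 7 endothelial markers 6 stood above 0 and 1 below, with a median of 0.13, and 2 had an unadjusted limma p under 0.05 (28.6%, against 17.4% of all genes). Of 8 stellate markers 3 stood above 0 and 5 below, from -0.59 to 0.04, and 1 had such a p (12.5%). In both lists 0 were called, and the part of these cells was not tested. In whole liver, fewer cells of a type and less RNA per cell cannot be told apart.

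Transcripts of the mitochondrial ribosome differed little between KO and WT livers. Of 77 genes, 1 was called by limma, Mrpl15, which fell, and 76 did not pass. That is 1.30% of the members, where 5.61% of all genes tested were called in either direction, 2.44% lower and 3.17% higher. Among the 10190 genes at least as bright as the dimmest member, 9.71% were called. At an unadjusted limma p under 0.05 stood 9 members (11.7%), 3 higher and 6 lower in KO, against 17.4% of all genes (8.97% higher and 8.40% lower). The differences ran from -0.21 to 0.14 with a median of 0.01, and the median over all genes was also 0.01. For 42 members the difference was above 0 and for 35 below.

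The intervals give a range for the difference in array intensity, for the probe set of each gene taken singly. Each has 95% coverage by itself, so together they are no joint bound over the 77 genes. The 95% interval of the difference lay within 1.2-fold in both directions for 63 of 77 members (81.8%), and within 1.5-fold for 77 of 77. Over all genes tested the shares were 72.5% and 95.7%. The interval that reached furthest down was that of Mrps34, to -0.41, and the one that reached furthest up was that of Mrps21, to 0.34. Members were measured with a median SE of 0.06, and their median SD within a genotype was 0.09, against 0.10 over all genes. Values of KO and WT livers were fully apart in 1 of 77 members, which was lower in KO, and in 7.00% of all genes (3.02% lower and 3.99% higher in KO).

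**Figure D1:**
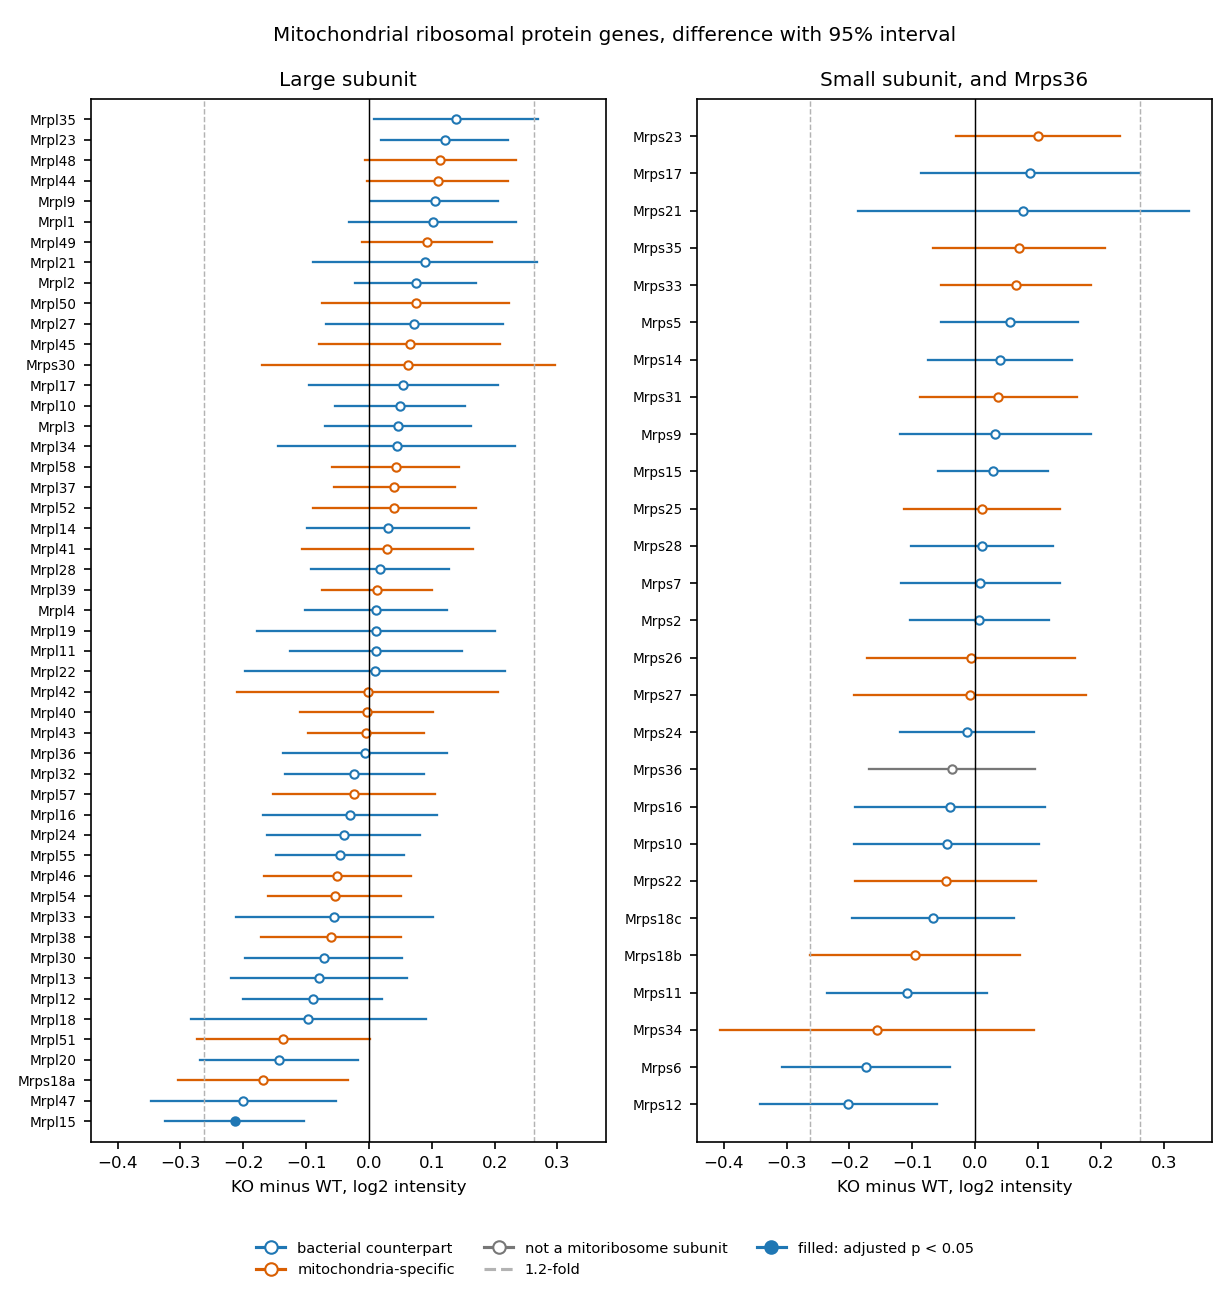
Difference between KO and WT (log2 intensity) with its 95% interval from limma for each of the 77 genes, large subunit on the left, small subunit and Mrps36 on the right, sorted by difference. Dashed lines mark 1.2-fold, and the filled point is Mrpl15, the 1 gene called, at -0.21. Colours mark proteins classed as having a bacterial counterpart, those classed as mitochondria-specific, and Mrps36.

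Promoters of these genes are shown because some sequence elements, not used in the choice by name, were more frequent there than in all tested genes. In RefSeq promoter windows of 300 bases (250 before to 50 after a gene's start, GRCm38.p6), 68 of 77 members had an entry, the others being Mrpl4, Mrpl13, Mrpl15, Mrpl19, Mrpl38, Mrpl54, Mrps28, Mrps34 and Mrps35. The ETS core CCGGAAG, bound by factors such as GABP, was present on either strand in 25 of 68 (36.8%), against 13.6% of the 15610 tested genes with a window. The NRF1 element (GCGCA, any base, then GCGC) was found in 13 (19.1%), against 7.85%. AAGATGG, the core of the YY1 element, was also found in 13 (19.1%), against 7.28%. At least 1 of these 3 motifs was present in 42 of 68 members (61.8%), against 25.2% of tested genes. TAGGTCA, the core of the element bound by Rev-erb and ROR receptors, was found in 0 of 68 members, against 2.63%. With so rare a motif, 0 of 68 members is near that share. For genes with more than 1 window, 3 members among them, a match in any window counted. AAGGTCA, the core for estrogen-related receptors, which ends in the same 6 letters as TAGGTCA, was in 4 (5.88%), against 4.48%. The E-box CACGTG was in 5 (7.35%), against 9.50%, and TATAAA in 5 (7.35%), against 13.6%. These counts describe letters in the windows, with no test, and both strands were searched for every motif.

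Examples of 4 windows follow, 5′ to 3′, with matches to the ETS, NRF1 and YY1 motifs in capitals. Each of the 4 holds a match, so they do not stand for members without one.
Mrps12 (chr7:28741772-28742071, minus strand): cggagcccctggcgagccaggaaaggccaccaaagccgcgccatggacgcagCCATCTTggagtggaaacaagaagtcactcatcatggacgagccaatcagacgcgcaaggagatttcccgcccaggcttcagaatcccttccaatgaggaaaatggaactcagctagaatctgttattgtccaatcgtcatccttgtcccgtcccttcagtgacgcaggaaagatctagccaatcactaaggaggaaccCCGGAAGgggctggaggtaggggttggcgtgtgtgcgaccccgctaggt
Mrps11 (chr7:78782881-78783180, plus strand): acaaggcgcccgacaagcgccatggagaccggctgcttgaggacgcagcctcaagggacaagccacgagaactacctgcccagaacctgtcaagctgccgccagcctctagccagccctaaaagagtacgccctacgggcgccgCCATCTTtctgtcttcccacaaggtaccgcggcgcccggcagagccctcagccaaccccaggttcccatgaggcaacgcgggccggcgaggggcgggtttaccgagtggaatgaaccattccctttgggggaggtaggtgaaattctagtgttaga
Mrpl35 (chr6:71823735-71823884, minus strand): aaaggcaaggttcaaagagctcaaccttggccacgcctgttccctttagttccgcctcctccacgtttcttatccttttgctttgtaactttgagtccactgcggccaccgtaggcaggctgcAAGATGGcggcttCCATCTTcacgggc
Mrpl9 (chr3:94443236-94443385, plus strand): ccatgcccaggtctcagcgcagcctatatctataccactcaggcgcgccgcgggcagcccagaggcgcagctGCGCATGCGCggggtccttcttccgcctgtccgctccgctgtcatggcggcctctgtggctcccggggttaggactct
The capitals are a YY1 core on the opposite strand 198 bases before the start and an ETS core 1 base after it in Mrps12. Mrps11 has a YY1 core on the opposite strand 106 bases before the start. Mrpl35 has YY1 cores on both strands, 23 and 36 bases after the start, and Mrpl9 has an NRF1 element 28 bases before it. The last pair of windows is shown from 100 bases before the start. Members with an ETS core had a median difference of -0.005 (n = 25), those without one 0.013 (n = 43). With an NRF1 element the median was 0.030 (n = 13), without one 0.010 (n = 55), and with a YY1 core it was -0.006 (n = 13), without one 0.017 (n = 55).

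**Figure D2:**
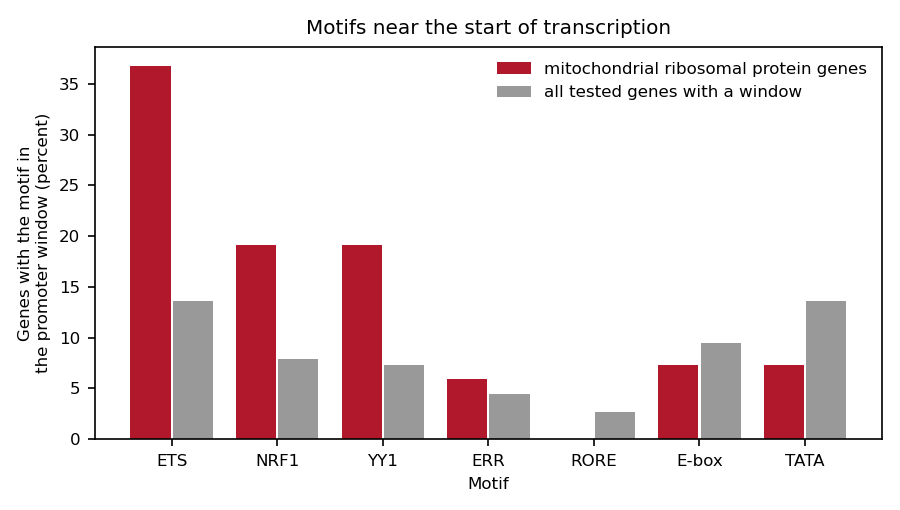
Percent of genes whose promoter window holds each motif, for the 68 mitochondrial ribosomal protein genes with a window (red, left bar) and for all 15610 tested genes with one (grey, right bar). The ETS core stood at 36.8% against 13.6%, and the NRF1 element at 19.1% against 7.85%.

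Many of these genes also lay head to head with a neighbour. In 26 of 68 members (38.2%) another gene with a window started upstream on the opposite strand, within 1000 bases, against 14.4% of tested genes with a window. Of these partners 24 were tested, among them Mrps11 and Mrpl46, members that are partners of each other. Limma called 0 of the 24, where 5.61% of all genes were called. At an unadjusted limma p under 0.05 stood 3 (Tmem63b, Ighmbp2 and Ptcd2, at -0.14, -0.15 and -0.20), where 17.4% of all genes did. With so few partners, neither count was read as a result. Mrps11, a small subunit gene, and Mrpl46, a large subunit gene, start 42 bases apart, and differed by -0.11 and -0.05. Mrps12 starts 147 bases from Sars2, which encodes the mitochondrial seryl-tRNA synthetase. Mrps12 stood at -0.20 and Sars2 at 0.09, neither of them called (adjusted p = 0.101 and 0.434). Mrpl43 starts 116 bases from Twnk, which encodes the mitochondrial DNA helicase, and both were close to 0, at -0.005 and -0.003. Mrpl47 starts 308 bases from Ndufb5, a complex I subunit gene, and they differed by -0.20 and 0.02 (adjusted p = 0.123 and 0.886). Partners are named for their position or their unadjusted p, chosen after their values were seen.

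Proteins of the large subunit with a bacterial counterpart form the largest class. Of 30 genes, 1 was called lower (3.33%, against 5.61% of all genes called), 0 were called higher and 29 did not pass in limma. At an unadjusted limma p under 0.05 stood 6 (20%, against 17.4% of all genes), 3 in each direction. The median difference of the 30 genes was 0.01. Mrpl15 encodes the mitochondrial counterpart of bacterial ribosomal protein L15. It read 9.77, 9.81, 9.63, 9.78 and 9.74 in KO livers, against 10.02, 9.96, 9.99, 9.83 and 9.99 in WT livers (probe set 10352947). Every KO liver lay below every WT liver, though the highest KO value and the lowest WT value were close. The difference was -0.21 with SE 0.05 and a 95% interval from -0.32 to -0.10 (limma adjusted p = 0.0285), a KO level of 0.862 times that of WT. The call did not hold when any 1 of 8 arrays was left out (adjusted p as high as 0.0677) or when the 3 arrays of widest interquartile range were (adjusted p = 0.153), while the difference stayed between -0.24 and -0.19.

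Next to it stood Mrpl47, the counterpart of L29 near the exit of the peptide tunnel. Its values were 7.89, 7.90, 7.90, 8.05 and 8.17 in KO livers, against 8.27, 8.28, 8.06, 8.11 and 8.17 in WT livers, so that KO replicate 5 alone reached into the WT range. The difference of -0.20 had an interval from -0.35 to -0.05 and did not pass (limma adjusted p = 0.123). The 2 probe sets of Mrpl47 disagreed, since the dimmer one stood at 0.11, and the mean of both gave -0.04. The call appeared with array weights (adjusted p = 0.0444) and without KO replicate 5 (adjusted p = 0.0424). Mrpl20, the counterpart of L20, differed by -0.14 (interval -0.27 to -0.02).

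The other end of this class held Mrpl35, the counterpart of L35. It read 10.20, 10.12, 10.24, 10.27 and 10.27 in KO livers, against 10.23, 10.17, 9.96, 10.06 and 9.99 in WT livers. The groups overlapped through WT replicates 1 and 2, and the difference of 0.14 (interval 0.01 to 0.27) did not pass (limma adjusted p = 0.251). Mrpl23, the counterpart of L23 at the tunnel exit, read 10.63, 10.76, 10.66, 10.70 and 10.72 in KO livers, against 10.57, 10.58, 10.49, 10.58 and 10.67 in WT livers. Only WT replicate 5 lay within the KO range. Its difference of 0.12 (interval 0.02 to 0.22) did not pass either (limma adjusted p = 0.185), and its dimmer probe set stood at 0.11. Mrpl9 and Mrpl1 differed by 0.10 each (limma adjusted p = 0.266 and 0.467). Stalk proteins, named here for their role after values were seen, bring translation factors to the ribosome. Mrpl12 stood at -0.09 (interval -0.20 to 0.02), Mrpl10 at 0.05 (-0.05 to 0.15) and Mrpl11 at 0.01 (-0.12 to 0.15).

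**Figure D3:**
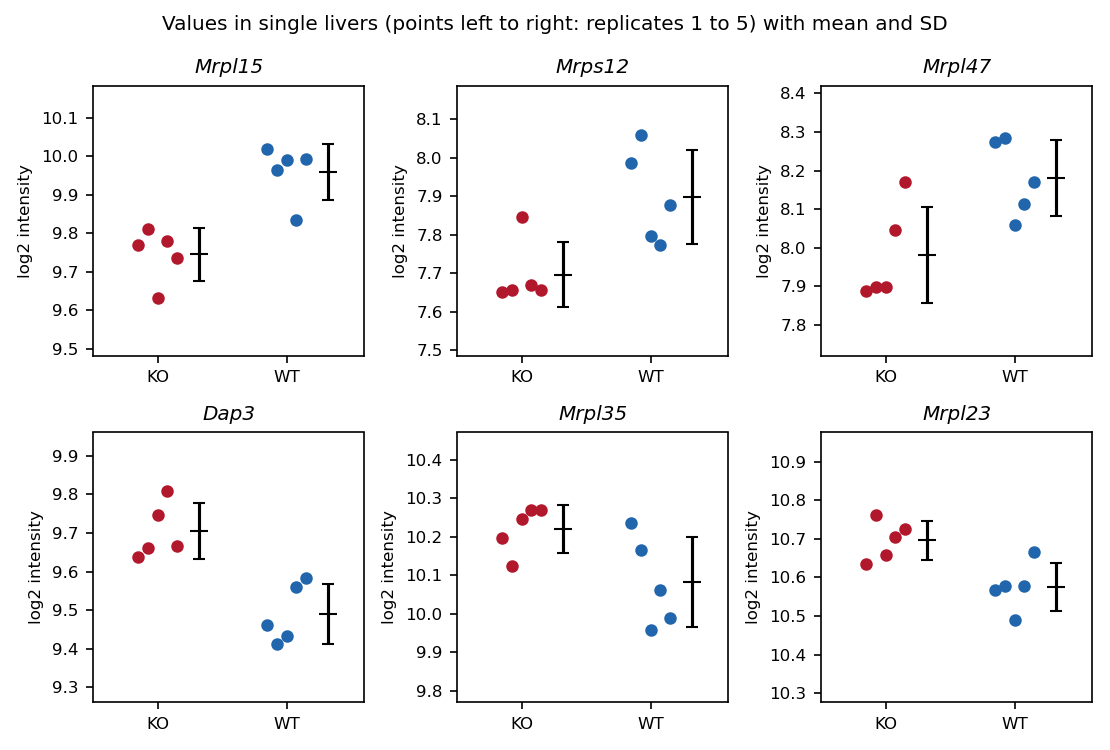
Log2 intensity in each KO liver (red, left) and WT liver (blue, right) for 6 genes, with mean and SD beside the points (n = 5 each, each panel spans the same 0.7 log2 units). The KO and WT points are apart in Mrpl15, where KO is lower, and in Dap3, where KO is higher, and they overlap in the other panels.

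Large subunit proteins classed here as mitochondria-specific numbered 20 genes. Among them were Mrps30 and Mrps18a, whose proteins sit in the large subunit despite their names. The class does not mean that a protein has no bacterial relative, since Mrps18c, a paralog of Mrps18a, was classed as having a bacterial counterpart. None was called by limma, against 5.61% of all genes, and 1 had an unadjusted p under 0.05 (5%, against 17.4%). That one was Mrps18a, at 9.14, 9.27, 9.13, 9.29 and 9.31 in KO livers, against 9.46, 9.54, 9.26, 9.41 and 9.32 in WT livers. Only WT replicate 3 fell among the KO values, and the difference was -0.17 (interval -0.30 to -0.03, limma adjusted p = 0.162). Mrps18a has paralogs in the small subunit, neither of which passed. Mrps18b stood at -0.10 (interval -0.26 to 0.07) and Mrps18c at -0.07 (-0.20 to 0.06). Mrpl51 differed by -0.14 (interval -0.27 to 0.001), and its dimmer probe set by -0.25 (unadjusted p = 0.0148, limma adjusted p = 0.1465 over all probe sets with a symbol).

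Higher values in this class did not pass either. Mrpl48 stood at 0.11, Mrpl44, whose protein carries a ribonuclease III fold, at 0.11, and Mrpl49 at 0.09 (limma adjusted p = 0.326, 0.306 and 0.366). Members named here for a function beyond structure did not pass. Mrpl45, which ties the ribosome to the inner membrane, stood at 0.06 (interval -0.08 to 0.21), and Mrpl58, a hydrolase that frees stalled ribosomes, at 0.04 (-0.06 to 0.14). Mrpl39 had the smallest SD within genotypes of all 77 members. It read 11.12, 11.11, 11.10, 11.10 and 11.12 in KO livers, against 11.12, 11.07, 11.03, 11.11 and 11.15 in WT livers.

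In the small subunit, limma called 0 of 16 genes with a bacterial counterpart and 0 of 10 classed as mitochondria-specific, against 5.61% of all genes. At an unadjusted limma p under 0.05 stood 2 (12.5%) and 0, against 17.4% of all genes. With so few genes, the absence of calls was not read as a result. The 2 were Mrps12 and Mrps6, both lower in KO. Mrps12 encodes the counterpart of S12, a protein of the decoding centre. It read 7.65, 7.66, 7.85, 7.67 and 7.66 in KO livers, against 7.99, 8.06, 7.80, 7.77 and 7.88 in WT livers. Apart from KO replicate 3, all KO livers lay below all WT livers, and the difference was -0.20 (interval -0.34 to -0.06, limma adjusted p = 0.101). Mrps6 read 8.96, 8.81, 8.91, 8.91 and 8.84 in KO livers, against 9.20, 9.13, 9.11, 8.89 and 8.98 in WT livers. WT replicate 4 fell among the KO values, and without it Mrps6 was called (adjusted p = 0.0464), at -0.22 where all arrays gave -0.17 (limma adjusted p = 0.144).

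Some small subunit genes varied widely between livers of 1 genotype. Mrps34 differed by -0.16 with an interval from -0.41 to 0.09, and ran from 8.27 to 8.71 in KO livers, against 8.47 to 9.11 in WT livers. Mrps21, the member of highest probe set mean, read 11.96, 11.98, 12.02, 12.12 and 12.13 in KO livers, against 12.12, 12.16, 12.15, 11.96 and 11.43 in WT livers. WT replicate 5 stood far below the others, and without it the difference turned from 0.08 to -0.06. Mrps26, of lowest mean, stood at -0.01 and crossed 0 in 5 of 17 alternatives, array weights among them. Mrps23 differed by 0.10 (limma adjusted p = 0.455). Mrps36, which matches the name pattern but whose protein is known as a part of the 2-oxoglutarate dehydrogenase complex, stood at -0.04 (interval -0.17 to 0.09). Probe sets bind with unequal strength, so a mean called high, low or below the median of all genes describes the brightness of a probe set and not the abundance of a transcript.

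Although few members differed between KO and WT, many members lay on the same side of their genotype mean in some livers, foremost WT replicates 1 and 3. In WT replicate 3, 11 of 77 members lay above the mean of their own genotype (14.3%), with a median deviation of -0.08. In that array 37.3% of the 10190 genes at least as bright as the dimmest member lay above, and 54.0% of all genes. In WT replicate 1 it was 65 of 77 (84.4%), with a median deviation of 0.06, against 56.7% of the equally bright genes and 44.2% of all genes. The brighter genes thus lay on the same side as the members in both arrays. WT replicates 2, 4 and 5 had 55, 29 and 35 members above. In KO replicates 1 to 5, 33, 34, 32, 54 and 43 members lay above. With arrays centred on their medians, an alternative added after seeing the data, the counts ran from 18 to 70 in KO livers and from 6 to 69 in WT livers, so no difference in spread between genotypes was read from them. Both subunits took part, since 5 of 50 large and 5 of 26 small subunit genes were above in WT replicate 3, and 45 of 50 and 19 of 26 in WT replicate 1. The median over members was 9.36, 9.36, 9.39, 9.37 and 9.31 in KO livers, against 9.41, 9.40, 9.26, 9.37 and 9.37 in WT livers. The SD between livers was larger in KO for 29 members and larger in WT for 48, so that it was larger in KO for 37.7% of members, 45.7% of the equally bright genes and 51.3% of all genes.

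Arrays also differed in width. WT replicate 3 had the smallest interquartile range of the WT arrays, 2.71, and WT replicate 1 the largest, 2.92. KO replicate 3 had the same range of 2.71, with 32 members above. KO replicate 5, at 2.94 the widest of the 10 arrays, had 43 above. The part of array width in these shares was not tested. When arrays were brought to 1 distribution by quantile normalization, an alternative added after seeing the data, 22 members lay above in WT replicate 3 and 56 in WT replicate 1. WT replicate 3 also had the highest macrophage sum of the 10 arrays, 6619, with 4160 to 5629 in KO livers and 4511 to 5604 in the other WT livers. The part of macrophages in this pattern was not tested. Genes share the array they were read on, so no test was made.

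**Figure D4:**
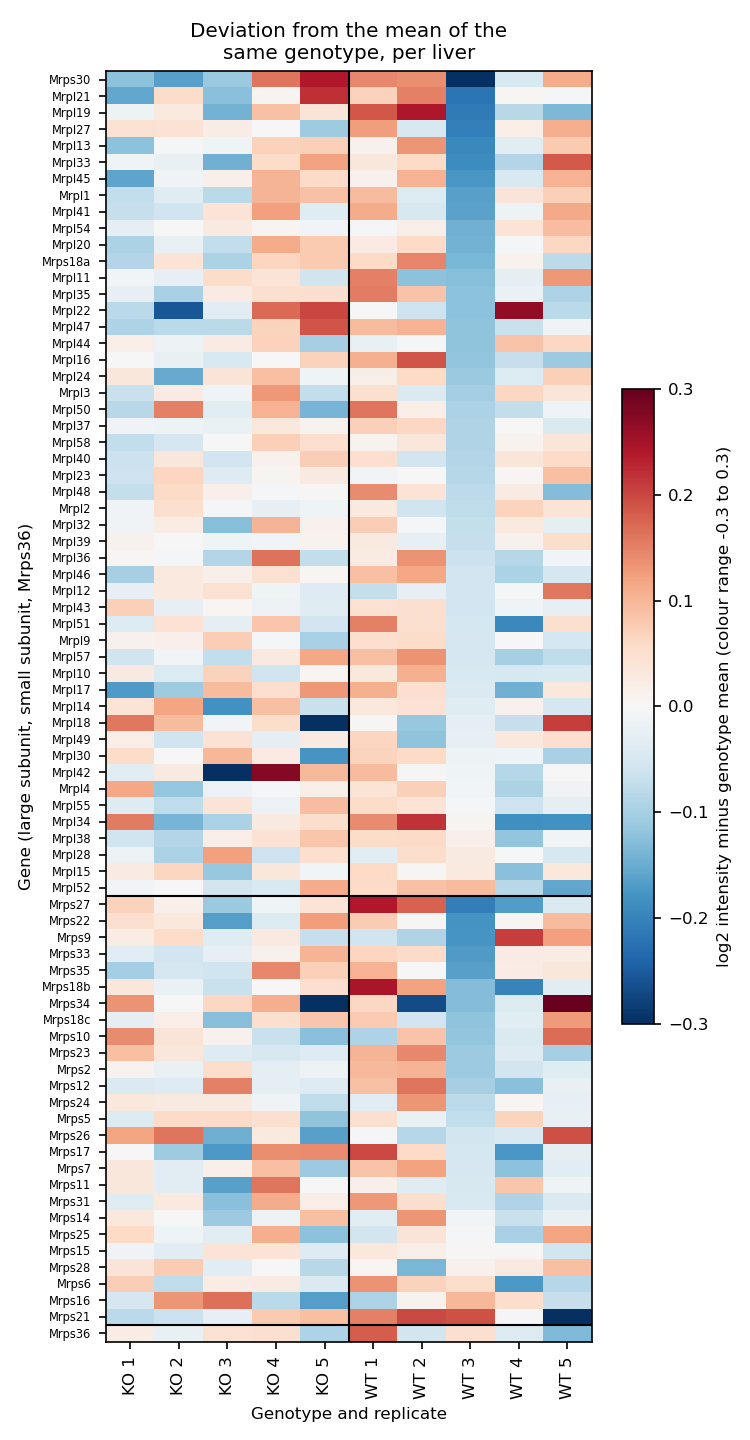
Deviation of each gene from the mean of its own genotype (colour, log2 intensity, red above and blue below) in the 5 KO and 5 WT livers, with large subunit genes on top, then small subunit genes and Mrps36. Rows are sorted by the value in WT 3 within each block; 11 of 77 genes are above the mean in that liver and 65 of 77 in WT 1.

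Genes that work with the mitochondrial ribosome, and some other mitochondrial genes, showed the same livers apart. Of 17 translation factors and related proteins, 1 lay above its genotype mean in WT replicate 3 and 16 in WT replicate 1, and these counts were also 1 and 16 after quantile normalization. For 25 genes of ribosome assembly and rRNA modification the counts were 2 and 18 (5 and 18 after quantile normalization). For 16 mitochondrial aminoacyl-tRNA synthetases they were 1 and 12 (2 and 10). The pattern was not particular to translation, since 18 genes of mitochondrial DNA replication and transcription gave 3 and 14 (5 and 14). For 19 mitochondrial proteases and chaperones the counts were 3 and 14 (7 and 9). For 15 regulators of nuclear genes for mitochondria they were 6 and 6 (7 and 5). In the cytosolic ribosome, by contrast, 35 of 55 genes were above in WT replicate 3 and 30 in WT replicate 1 (45 and 24). Among 82 nuclear-encoded subunits of the respiratory chain the counts were 28 and 38 (36 and 27).

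**Figure D5:**
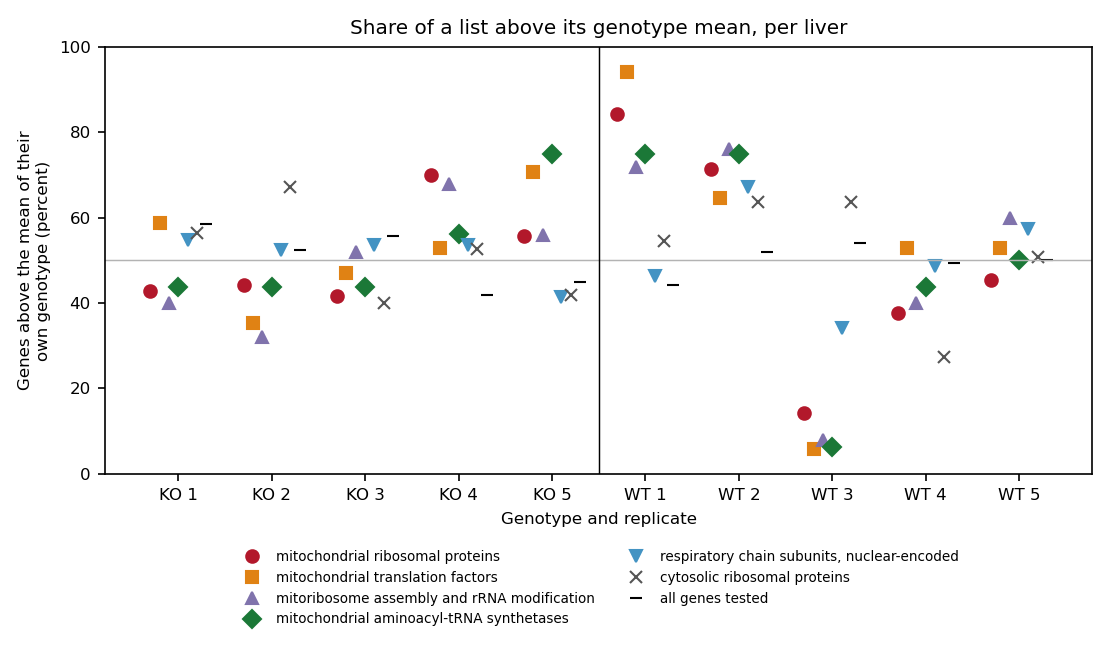
Percent of the genes of each list that lie above the mean of their own genotype, for each KO liver (left) and WT liver (right). In WT 3 the mitochondrial ribosomal proteins stand at 14.3%, with translation factors, assembly factors and synthetases beside them, while cytosolic ribosomal proteins stand at 63.6% and all genes at 54.0%; genes as bright as the members, not drawn, stood at 37.3%.

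Between genotypes, limma called 8 of 250 genes in these related lists, where 5.61% of all genes were called. The share differed between lists, some of them very short. The name pattern misses some subunits of the mitochondrial ribosome, of which 4 were tested and 1 was called. Dap3, a GTP-binding small subunit protein first described in cell death, read 9.64, 9.66, 9.75, 9.81 and 9.67 in KO livers, against 9.46, 9.41, 9.43, 9.56 and 9.58 in WT livers. The lowest KO value exceeded the highest WT value, and Dap3 rose by 0.21 (SE 0.05, limma adjusted p = 0.0324). It was no longer called when any 1 of 6 arrays was left out (adjusted p as high as 0.0833), with centred arrays (adjusted p = 0.0608) and without the 3 widest arrays (adjusted p = 0.181). Gadd45gip1 stood at -0.13 (limma adjusted p = 0.246), Ptcd3 at 0.08 and Chchd1 at -0.07.

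Of the 25 assembly and modification genes, Mettl15, which methylates the small subunit rRNA, rose by 0.31 and 24 did not pass. Its limma adjusted p was 0.0388, and leaving out any 1 of 6 arrays ended the call (adjusted p as high as 0.093), as it did with centred arrays (0.0513) and without the 3 widest arrays (0.0756). Of the 17 translation factors and 16 synthetases, 0 were called by limma, where 5.61% of all genes were. At an unadjusted limma p under 0.05 stood 2 and 3 (11.8% and 18.8%, against 17.4%), and the medians were 0.05 and 0.06. Above 0 stood 13 of 17 and 13 of 16, where 10792 of 19933 did over all genes. KO and WT values were apart in 2 translation factors, Oxa1l and Gfm2, both higher in KO, and in 0 synthetases, against 7.00% of all genes. Among 18 genes of mitochondrial DNA replication and transcription, Top1mt, the mitochondrial topoisomerase, rose by 0.27 (limma adjusted p = 0.013, and 0.13 without the 3 widest arrays) and 17 did not pass. The polymerase gene Polrmt stood at -0.03 and the packaging factor gene Tfam at -0.05.

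Among 19 mitochondrial proteases and chaperones, 2 rose (10.5%) and 17 did not pass, and 5 had an unadjusted p under 0.05 (26.3%, against 17.4% of all genes). Among the 10190 genes at least as bright as the dimmest member, 9.71% were called and 27.5% had such a p. Both shares of this list were near those. Clpx, the unfoldase of the matrix protease ClpXP, rose by 1.89 (limma adjusted p = 2.3e-08), and Dnaja3, a matrix co-chaperone, by 0.22 (adjusted p = 0.0318). Dnaja3 was not called when any 1 of 8 arrays was left out (adjusted p as high as 0.0794), with centred arrays (0.0547) and without the 3 widest arrays (0.176). Of 82 respiratory chain subunits 0 were called by limma, against 5.61% of all genes. Of the 82, 10 had an unadjusted limma p under 0.05 (12.2%, against 17.4%), and the median was 0.02. Messages encoded by mitochondrial DNA itself were not analysed here. In the cytosolic ribosome 1 of 55 genes was called, Rpl12, which fell by 0.54 (limma adjusted p = 0.0103, and 0.124 without the 3 widest arrays). The probe set of Rpl12 had a mean of 7.22, below the median of all genes, whereas 53 of the 55 in this list lay above it. In that list 50 of 55 genes stood below 0, where 9141 of 19933 did over all genes, and the median was -0.07. At an unadjusted p under 0.05 stood 12 genes (21.8%), all lower in KO, against 8.40% of all genes, and KO and WT values were apart in 9, against 7.00% of all genes. These backgrounds were larger among the 10190 brighter genes. There 1410 were lower in KO at such a p, 1213 had KO and WT values apart and 5219 stood below 0.

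Regulators of nuclear genes for mitochondria are the factors behind the motifs above and their partners. Of 15 tested, 1 rose, 1 fell (together 13.3%) and 13 did not pass, and 5 had an unadjusted p under 0.05 (33.3%, against 17.4% of all genes). Among the 10190 genes at least as bright as the dimmest member, 9.71% were called and 27.5% had such a p. With 15 genes in the list, no excess was read from these shares. Esrrg, an estrogen-related receptor, rose by 0.31 (limma adjusted p = 0.034), but was not called when any 1 of 6 arrays (adjusted p as high as 0.0855) or the 3 widest arrays (0.0709) were left out. Myc fell by 1.69 (limma adjusted p = 0.013), with single values of 7.91, 7.34, 7.54, 7.31 and 7.95 in KO livers, against 7.86, 9.50, 9.55, 10.36 and 9.24 in WT livers, where WT replicate 1 lay within the KO range. Nrf1, which binds the element named after it, stood at -0.11 (interval -0.25 to 0.03, limma adjusted p = 0.422). Gabpa, which encodes the DNA-binding part of GABP, stood at 0.02 (interval -0.13 to 0.16, limma adjusted p = 0.945). Genes named as not passing in these lists were picked for their role after values were seen.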

How the data were processed

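Each liver's RNA went onto an Affymetrix Mouse Gene 1.0 ST array of its own, per the labels' protocols. The authors deposited normalized intensity values on a linear scale for 27541 probe sets on 10 arrays, and RMA and Partek are named without versions per the submitters' processing notes. The sources used here do not say whether rows had been filtered. Background levels are not in the table, so signal over background is unknown and the number of arrays limits the precision. An annotation table of the array gave 21631 probe sets 1 symbol, 1317 several and 4593 none. Log2 was taken, probe sets with 1 symbol were kept, and the one of highest mean stood for each of 951 genes with more, which left 19933 genes. Fits used limma 3.58.1 (lmFit and eBayes) in R 4.3.3, two-sided, without covariates, and the steps were tested on simulated data. Every adjusted p comes from limma, and p-values reflect differences among these animals. Motifs were searched with Python 3.11.15. The members and lists were chosen with earlier results of these data known. Named genes are Nr1d1, members called or without overlap between genotypes, the 8 largest differences in each direction, the members of highest and lowest mean, and up to 4 called genes of each other list. Alternatives were averaging probe sets of a gene, leaving out dim genes, median centring, quantile normalization, array weights, a variance trend, and leaving out arrays.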

Additional observations from a re-analysis of the deposited data

Results flagged for a closer look

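In 4 of 40 groups of 5 livers examined, 1 liver lay far from the rest by Dixon's criterion at the 95% level, and chance alone gives about 1 in 20. Over all members it was 6 of 154 groups. Mrps12 read 7.847 in KO replicate 3, the highest of the KO livers, with the next at 7.669. Mrps21 read 11.43 in WT replicate 5, the lowest of the WT livers, with the next at 11.96. In the same liver Mrps26 was the highest of the WT livers, at 7.646, with the next at 7.447. The median over all 77 members was lowest in WT replicate 3, at 9.258, with the next WT liver at 9.367.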

How the results depend on the processing

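Mrpl15 stayed the only member called with the mean of probe sets, without dim genes, with centred arrays, with quantile normalization and with a variance trend. Array weights gave 2 called members (Mrpl15 and Mrpl47), leaving out the 3 arrays of widest interquartile range gave 0, and leaving out 1 array gave 0 to 2, where fewer arrays enter the fit. Of 250 genes in the related lists, 8 were called, against 9 without dim genes, 9 with quantile normalization, 10 with a variance trend, 5 with centred arrays, 2 without the 3 widest arrays (Clpx and Myc) and 4 to 8 with 1 array left out. Across the genotype fits the median difference of the members moved by less than 0.048, the pooled SD between livers of the median level over members. That SD describes single livers and not a difference between groups. Mrps26, at -0.01, turned to 0.027 with array weights, to 0.035 without the 3 widest arrays and ranged from -0.047 to 0.041 with 1 array left out. With 1 array left out, Mrps21 ranged from -0.0574 (without WT replicate 5) to 0.126 and Nr1d1 from -0.0175 (without KO replicate 3) to 0.295. The cause was not tested. The number of members above their genotype mean ran from 32 to 54 in KO livers and from 11 to 65 in WT livers, against 26 to 49 and 22 to 56 with quantile normalization. No paired analysis was possible because the labels give no replicate numbers shared between genotypes.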

Other observations

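Mrpl53 shares its probe set with Ccdc142 and was therefore no member, and that probe set read 8.50 in KO and 8.51 in WT, a difference of -0.005 (SE 0.049). Besides Mrpl47, Mrpl23 and Mrpl51, 5 members had a second, dimmer probe set. For Mrps5 it stood at 0.12 (unadjusted p = 0.041, limma adjusted p = 0.266 over all probe sets with a symbol), where the brighter one stood at 0.05. Those of Mrpl27, Mrpl41, Mrps33 and Mrps36 stood at 0.03, -0.01, -0.0002 and -0.09, where the brighter ones stood at 0.07, 0.03, 0.07 and -0.04. Mrps34, Mrps30, Mrpl42 and Mrpl22 followed Mrps21 as the members of widest SD within genotypes, at 0.21, 0.20, 0.17 and 0.17.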
